A study of Mus musculus with 12 samples.

Results

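The resting transcriptome of C2C12 myotubes was described from the 6 libraries of vehicle-treated cells, out of 12 libraries in the experiment. C2C12 is an established line of mouse myoblasts whose confluent cells fuse into multinucleated myotubes after a switch from fetal bovine serum to 2% horse serum. The myotubes here had been differentiated for 5 days, which the study's methods give, and then treated for 16 h with vehicle, the solvent DMSO. The other 6 libraries, from myotubes given 20 µM of the mitochondrial uncoupler BAM15 in the same solvent, were not compared with them. The labels call the cells fully differentiated myotubes of passages 2-5. A culture of 1 line carries no nerve, no vessel and no immune cells, and the labels do not say whether the 6 libraries came from separate cultures, so that p-values measure only the spread between these libraries, which may be technical.

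A gene was included when it had a count in all 6 vehicle libraries, which held for 14346 of the 15113 genes listed. Every listed gene had at least 69 counts over all columns of the deposited counts, so genes with fewer were absent from the start. RNA had been read as QuantSeq 3′ tags, in which oligo-dT priming gives about 1 read per transcript, and levels are counts per 1000000 counts of the library (CPM), not divided by transcript length. Values are means ± SD over n = 6 libraries unless a library is named. Total counts ran from 15299135 to 18866728 per library, so that 3 counts correspond to between 0.159 and 0.196 CPM, the lowest level that can be told from 0. The median included gene had 14.5 CPM. 116 genes reached 1000 CPM, 1805 lay between 100 and 1000 CPM, 6193 between 10 and 100 CPM, 3743 between 1 and 10 CPM, and 2489 lay below 1 CPM. Because PCR copies of 1 molecule were not separated, this floor covers counting error only.

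Skeletal muscle fibres form when myoblasts, marked by the determination factor MyoD, leave the cell cycle, switch on the myogenic factor myogenin, and fuse. The fused cell fills with sarcomeres, repeating units in which myosin filaments pull on actin filaments while troponin and tropomyosin gate the contact in response to calcium. Many of these proteins come as embryonic, slow, fast and cardiac isoforms from separate genes, and the choice among them marks the developmental stage of a fibre. Myotubes in culture are known to resemble embryonic and neonatal fibres.

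All 6 genes used to check the label were abundant, together 16848.5 ± 598 CPM. Acta1, skeletal muscle α-actin, stood at 7856, 7038, 8160.0, 7766, 8233 and 7321 CPM in libraries 1 to 6. Des, the intermediate filament desmin, stood at 2644, 2838.5, 3219, 2824, 2984 and 2479 CPM. Tnnt3, fast troponin T, stood at 3055, 3298, 2885, 2782, 2592 and 2735 CPM. No library stood apart for these 3 genes, whose coefficients of variation were 6.07%, 9.12% and 8.73%. Myh3, the embryonic myosin heavy chain, stood at 2231, 2095, 2458, 2292, 2135 and 2289 CPM. Myog, the transcription factor myogenin that drives terminal differentiation, stood at 814, 865.5, 712, 969.7, 796 and 842 CPM. Ckm, muscle creatine kinase, which buffers ATP, was the lowest of the 6 at 307, 304, 310.5, 330.3, 318 and 312 CPM, and also the steadiest, with a coefficient of variation of 3.06%. In the GRCm38 build, Acta1 lies at chr8:123891769-123894751, Des at chr1:75360329-75368579 and Myh3 at chr11:67078300-67102291. Of the last 400 bases of Des, 220 lie under exons annotated on the opposite strand, and the strand rule used in counting is not given in the sources used here.

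Markers of other cell types ranged from near the floor, for leukocytes, endothelial cells and adipocytes, to high levels for smooth muscle. The 5 measured macrophage and leukocyte genes summed to 2.87 ± 0.562 CPM, led by Cd14 at 1.02 ± 0.214 and Cd68 at 0.826 ± 0.235 CPM. The pair of endothelial genes, Vwf and Tek, summed to 0.457 ± 0.151 CPM, and the pair of adipocyte genes, Pparg and Fabp4, to 0.794 ± 0.301 CPM. Cardiomyocyte genes summed to 15.3 ± 1.09 CPM over 4 genes, led by the transcription factor Gata4 at 7.69 ± 0.696 CPM and Myh6, α-cardiac myosin, at 4.297 ± 0.773 CPM. The epithelial pair had 10.2 ± 1.78 CPM for Cdh1, E-cadherin, and 5.54 ± 1.11 CPM for Krt14, a keratin. Other lists held high genes beside genes near the floor. Of the 7 measured smooth muscle genes, which summed to between 4356 and 5303 CPM, Des, shared with skeletal muscle, and Acta2, smooth muscle α-actin at 1785 ± 74.01 CPM, led, followed by Smtn, smoothelin, at 104.6 ± 7.41 CPM, Tagln, transgelin, at 70.1 ± 13.8 CPM and Lmod1, leiomodin, at 15.7 ± 1.06 CPM. Their median was 70.1 CPM and 6 of the 7 exceeded 10 CPM, Cnn1, calponin, being below it at 1.396 ± 0.531 CPM. Of 6 measured fibroblast genes, Col1a1 and Dcn, a collagen and a proteoglycan that C2C12 cells also make, had 418 ± 51.1 and 256 ± 9.13 CPM, whereas Pdgfra, a receptor of fibroblasts, had 2.42 ± 0.475 CPM. Of 4 osteoblast genes, Spp1, the matrix protein osteopontin, had 430.1 ± 16.9 CPM and Runx2, the bone regulator, 14.2 ± 1.301 CPM, beside Bglap, osteocalcin, at 0.092 CPM. The chondrogenic factor Sox9 had 283 ± 6.15 CPM beside Col10a1, a collagen of hypertrophic cartilage, at 0.2705 ± 0.223 CPM. Of 4 neuronal and glial genes, Gap43, a growth cone protein, had 32.5 ± 3.51 CPM beside S100b at 0.968 ± 0.309 CPM. The part of other cells in these levels was not tested. The 8 hepatocyte markers were not analysed here.

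The reads were spread over many genes: the 474 most abundant held 50% of them, the first 10 held 12.2% and the first 100 held 29.7%. Protein-coding genes took 90.0% ± 1.25 of the counts, long intergenic RNAs 6.96% ± 1.08, the 2 mitochondrial ribosomal RNAs 2.13% ± 0.519 and processed pseudogenes 0.540% ± 0.0266. Among the 20 most abundant genes were 6 contractile genes, 4 genes of the mitochondrial genome and 3 long noncoding RNAs. The highest was Gm42418, annotated as a long noncoding RNA and known to overlap ribosomal RNA sequence, with 35704, 57348, 36765, 56993, 31024 and 52628 CPM. Libraries 2, 4 and 6 were the high ones for it, and none of their values overlapped those of libraries 1, 3 and 5. H19, an imprinted noncoding RNA that is abundant in embryonic muscle, came next at 18340.5 ± 1465 CPM and varied little, from 16767 to 20193 CPM.

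**Figure D1:**
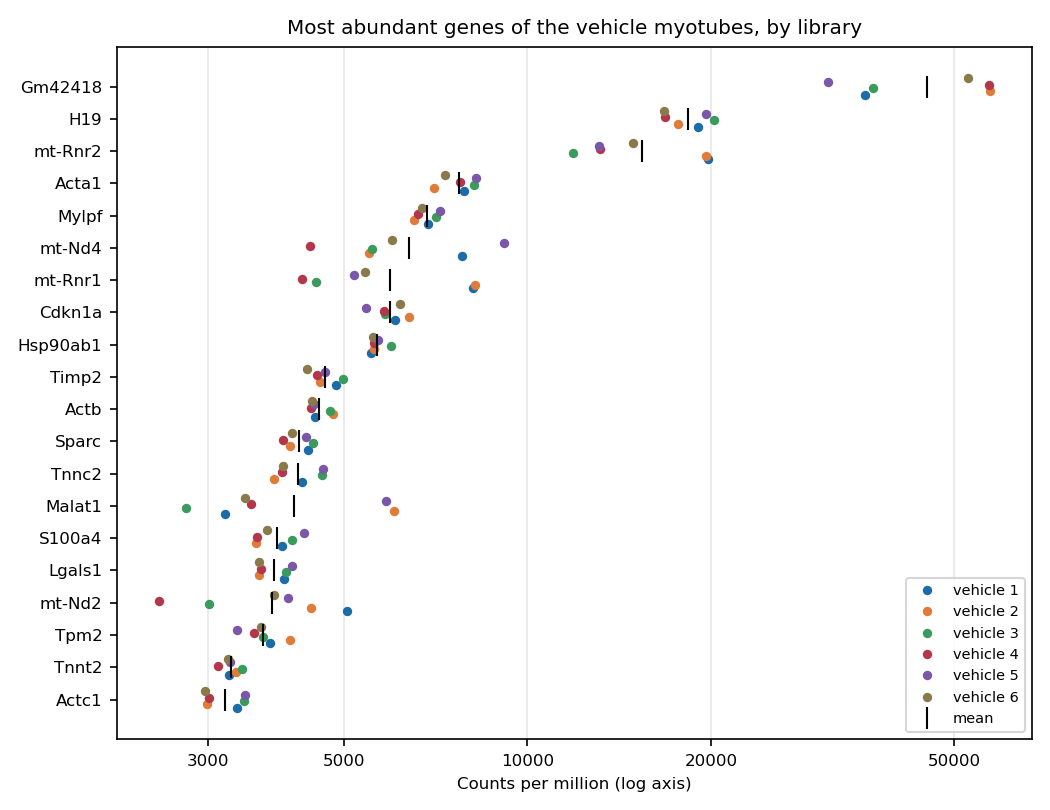
The 20 genes with the highest mean level in vehicle myotubes. Each point is 1 of the 6 vehicle libraries, the black mark is their mean, and the horizontal axis is CPM on a log scale. Gm42418, Malat1 and the mitochondrial genes spread most widely, while the contractile genes lie close together.

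Contractile genes followed. Acta1 was the most abundant messenger of a nuclear gene, and Mylpf, the fast regulatory myosin light chain, came next to it at 6833 ± 266 CPM, with 6518 CPM in its lowest and 7195 CPM in its highest library. Tnnc2, fast troponin C, had 4211 ± 344 CPM, Tpm2, β-tropomyosin, 3686 ± 243 CPM, Tnnt2, cardiac troponin T, 3264 ± 100.2 CPM, and Actc1, cardiac α-actin, 3193 ± 236 CPM. Of the last 400 bases of Tnnc2, 371 lie under opposite-strand exons. The same holds for 259 of Myh1, 269 of Atp2a1 and all 400 of Cacna1s, Timp3, Mef2d and Pfkp, whose counts could include reads of the partner gene. The other nuclear genes among the 20 were of mixed function. Cdkn1a, which encodes p21, the inhibitor that holds myotubes out of the cell cycle, had 5955 ± 333 CPM. The chaperone gene Hsp90ab1 had 5669 ± 160.2 CPM and cytoplasmic β-actin, Actb, had 4561 ± 168 CPM. Timp2, an inhibitor of matrix metalloproteinases, had 4661 ± 230.0 CPM, and Sparc, a collagen-binding matrix protein, had 4223 ± 189 CPM. S100a4, a calcium-binding protein, had 3886 ± 287 CPM and Lgals1, galectin-1, 3842 ± 224 CPM. Of the last 400 bases of S100a4, 240 lie under same-strand exons of other genes, so its count is uncertain.

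The sequences just before the start sites of contractile genes are shown because these genes are among the most abundant messengers and are known targets of the E-box-binding MyoD family and of serum response factor, which binds the CArG box. They are the 250 bases upstream of RefSeq starts in build GRCm38.p6, for the 4 most abundant contractile genes whose window holds either motif, read in the direction of transcription. Capitals mark CAGCTG, which reads the same on both strands, and the CArG box.
Acta1 (chr8:123894776-123895025, minus strand): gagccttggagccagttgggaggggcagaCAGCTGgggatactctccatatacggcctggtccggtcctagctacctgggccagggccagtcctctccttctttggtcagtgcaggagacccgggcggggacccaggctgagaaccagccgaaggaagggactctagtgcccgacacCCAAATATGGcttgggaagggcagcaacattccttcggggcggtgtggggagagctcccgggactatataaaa
Mylpf (chr7:127211358-127211607, plus strand): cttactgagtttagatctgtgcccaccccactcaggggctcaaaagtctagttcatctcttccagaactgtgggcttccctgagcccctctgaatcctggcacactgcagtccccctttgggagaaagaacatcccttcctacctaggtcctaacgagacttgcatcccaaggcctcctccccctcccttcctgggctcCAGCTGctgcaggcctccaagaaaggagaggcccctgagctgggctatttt
Tpm2 (chr4:43523555-43523804, minus strand): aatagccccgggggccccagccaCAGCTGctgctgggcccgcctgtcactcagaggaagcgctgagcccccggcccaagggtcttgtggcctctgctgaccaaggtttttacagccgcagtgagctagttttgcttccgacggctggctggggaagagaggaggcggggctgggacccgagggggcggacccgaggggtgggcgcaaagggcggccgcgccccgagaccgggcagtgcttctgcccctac
Tnnt2 (chr1:135836084-135836333, plus strand): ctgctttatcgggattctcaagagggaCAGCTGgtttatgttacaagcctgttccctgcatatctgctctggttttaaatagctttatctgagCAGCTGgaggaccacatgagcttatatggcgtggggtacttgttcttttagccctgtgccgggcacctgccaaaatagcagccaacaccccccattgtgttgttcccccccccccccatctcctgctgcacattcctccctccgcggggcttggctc

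In Acta1 the CAGCTG begins at position -221 and the CArG box at -73, counting the base before the start as -1. Mylpf has a CAGCTG at -51, Tpm2 at -227, and Tnnt2 at -223 and -157. RefSeq windows were found for 38 of the 49 contractile genes. CAGCTG was present in 14 of the 38, or 36.8%, beside 14.7% of all 27025 genes with windows. The CArG box was present in 6 of the 38, or 15.8%, beside 1.62% of all genes, and the site of the MEF2 factors in 6, or 15.8%, beside 3.42%. TATAAA, the core of the TATA box, was present in 9, or 23.7%, beside 14.3%. Both strands were searched, and TATAAA can overlap the MEF2 site. These are matches of letters and not measured binding.

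Isoform choice was asked within 47 families, of which 44 had at least 2 members above 3 counts in every library. In each, the most abundant member was set against the next one by their log2 ratio within each library. A two-sided exact sign-flip permutation test over the 6 ratios was used, whose smallest possible p is 0.0312, with Benjamini-Hochberg adjustment over the 44 families. The leading member was picked from the same values, so its direction is not independent of the test. In 41 of the 44 families, or 93.2%, the same member led in all 6 libraries, each with an adjusted p of 0.0335 by this permutation test. The lead exceeded 2-fold in 30 families and 10-fold in 14.

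**Figure D2:**
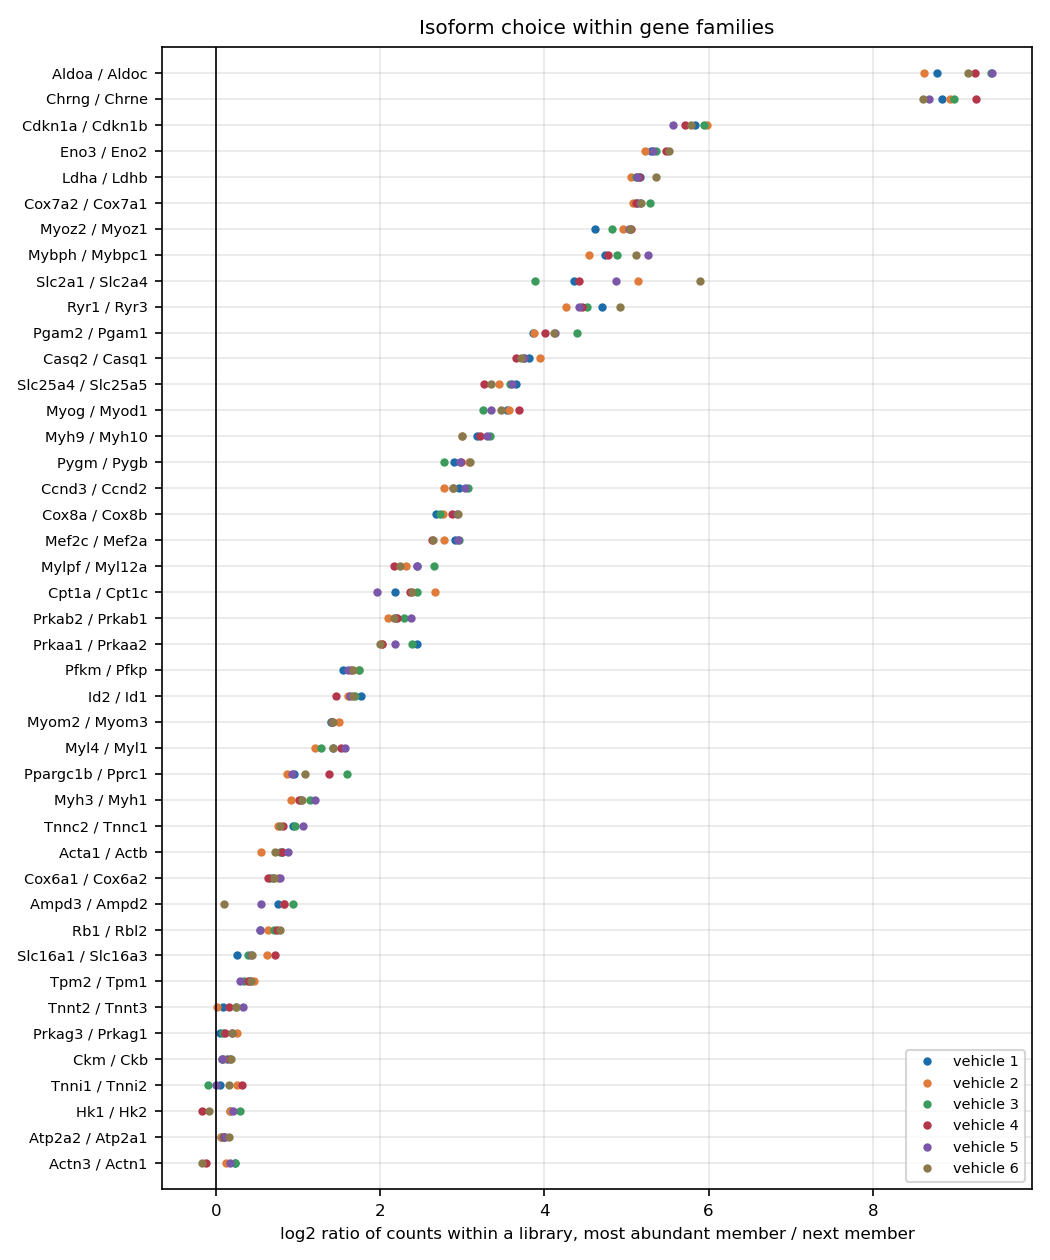
Isoform choice in 43 of the 44 gene families. The horizontal axis is the log2 ratio of counts of the most abundant member over the next member within a library, and each point is 1 of the 6 vehicle libraries. Ratios reach 9.12 for Aldoa over Aldoc, and for troponin I, α-actinin and hexokinase they straddle 0.

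Among the myosin heavy chains, the embryonic form led. Myh3 held 49.9% of the counts of 9 sarcomeric heavy chains and exceeded Myh1, the fast 2X form, by 2.09-fold, with 1079.7 ± 76.5 CPM for the latter (1090.2, 1113, 1109.8, 1131, 926 and 1108 CPM). Library 5 was the low one for Myh1. Then came Myh8, the perinatal form, at 665 ± 50.4 CPM, Myh4, the fast 2B form, at 333 ± 17.8 CPM, and Myh7, the slow β form, at 143 ± 12.6 CPM. Myh2, the fast 2A form, had 29.7 ± 5.403 CPM. Myh7b and Myh6 were both near 4 CPM and did not differ beyond their spread (adjusted p = 0.781, exact permutation test). The adjustment was over the 85 neighbouring pairs of all families, of which 75, or 88.2%, passed. These pairs were ordered by the same values, so their direction is not independent of the test either. The 3′ ends of the sarcomeric heavy chain genes are partly alike. Their last 400 bases were cut into overlapping windows of 50. Of these windows, 16.7% for Myh1, 30.2% for Myh7 and 34.8% for Myh6 also occurred in another gene. Counts could thus have been split among such genes. Of the non-sarcomeric heavy chains, Myh9 led Myh10 by 9.02-fold at 678 ± 71.5 CPM.

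The light chains differed more sharply. Myl4, the embryonic and atrial essential chain, had 2101 ± 52.1 CPM and exceeded Myl1, the fast essential chain, by 2.64-fold in these counts, with 797 ± 77.04 CPM for the latter. Divided by the length of the longest transcript, the order of this pair turned over, with a log2 ratio of -0.19. Mylpf held 80.9% of the regulatory chain counts, the non-muscle chain Myl12a came next at 1315 ± 122 CPM, and the slow chain Myl2 had 87.8 ± 4.64 CPM. Myl3, the slow essential chain, had 2.33 ± 0.706 CPM. Of the 3′ windows, 23.4% for Myl1 and 15.6% for Myl12a also occurred in another gene. Their counts, and the ratios to them, are therefore uncertain.

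Actins and the thin filament proteins mixed skeletal and cardiac forms. Acta1 exceeded Actb by 1.69-fold and made up 44.6% of the actin counts, followed by Actc1 and by Acta2. Actg1, cytoplasmic γ-actin, was listed at 3.51 ± 1.14 CPM, and 0% of its 3′ windows matched another gene exactly. The search does not find near-identical copies, so this low count remains uncertain. Tnnt2, the cardiac and embryonic troponin T, exceeded Tnnt3 by 1.13-fold (Tnnt2 with 3245, 3329, 3411, 3112, 3257 and 3231 CPM), and slow Tnnt1 followed at 1549 ± 85.3 CPM. Per transcript length Tnnt3 was ahead of Tnnt2, with a log2 ratio of -1.45. Slow Tnni1 and fast Tnni2, at 1756 ± 58.6 and 1622 ± 127 CPM, did not differ beyond their spread (adjusted p = 0.164, exact permutation test), and per length fast Tnni2 was ahead, with -1.15. Cardiac Tnni3 had 2.64 ± 0.526 CPM. Fast Tnnc2 exceeded slow and cardiac Tnnc1, at 2269 ± 55.4 CPM, by 1.85-fold, and Tpm2 exceeded Tpm1 by 1.31-fold.

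Myosin-binding proteins, myozenins and myomesins each had a leading member, and α-actinins did not. Mybph, myosin-binding protein H, held 94.1% of its family's counts and exceeded the slow Mybpc1 by 29.6-fold. All 400 of its last bases lie under opposite-strand exons. Myoz2 exceeded Myoz1 by 30.3-fold, and Myom2 exceeded Myom3 by 2.69-fold. Actn3, the fast α-actinin, and the non-muscle Actn1 had 433 ± 23.9 and 411 ± 36.6 CPM and did not differ beyond their spread (adjusted p = 0.312, exact permutation test). Division by transcript length, the same shift in every library, gave a log2 ratio of 0.45. Other members of the contractile list ran from Ankrd1, a stretch-responsive protein of the titin complex, at 2239 ± 149.8 CPM, down to Tmod4 at 1.67 ± 0.359 CPM. The 49 genes of the list together took 6.67% of the reads. All 49 had a count in every library, 40 were above 100 CPM, and their median of 665 CPM compares with 14.5 CPM over all included genes.

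For calcium handling, the cardiac and slow calsequestrin led. Casq2 had 1798 ± 119 CPM (1911, 1880.1, 1906, 1643, 1773 and 1674 CPM) and exceeded the fast form Casq1 by 13.7-fold. Cacng1, a channel subunit, had 589.5 ± 29.9 CPM and Fkbp1a, a stabilizer of the release channel, 579 ± 27.1 CPM. The pumps that return calcium to the sarcoplasmic reticulum were nearly level: Atp2a2, the slow and cardiac form, and Atp2a1, the fast form, had 590.2 ± 18.3 and 553 ± 19.8 CPM, a ratio of 1.07 that was above 1 in all 6 libraries. Per transcript length Atp2a1 was ahead, with a log2 ratio of -0.61. Ryr1, the skeletal calcium release channel, had 327 ± 58.4 CPM and exceeded Ryr3 by 23.4-fold. Cacna1s, the voltage sensor of the surface membrane, had 142 ± 12.3 CPM. Pvalb, the calcium buffer of adult fast fibres, was the lowest of the 20 measured coupling genes at 10.8 ± 1.38 CPM, and Mrln, a small inhibitor of the pump, had 18.9 ± 1.15 CPM.

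The acetylcholine receptor was in its fetal form. Chrng, the γ subunit of the receptor before innervation, had 671, 641, 686, 622, 719.97 and 646 CPM. Chrne, the ε subunit that replaces it at adult endplates, had 1.43, 1.27, 1.33, 0.980, 1.71 and 1.63 CPM. Every library had far more of the fetal subunit, 474-fold on average. Chrna1, the α subunit, had 1321 ± 82.97 CPM, Chrnd, the δ subunit, 317 ± 51.8 CPM, and Chrnb1, the β subunit, 119 ± 3.99 CPM. Rapsn, which clusters the receptor, had 164 ± 6.03 CPM, and Musk, its organizing kinase, had 39.3 ± 6.19 CPM. Ache, acetylcholinesterase, had 3.23 ± 0.343 CPM.

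Fusion genes were expressed. Mymk, the membrane fusogen myomaker, had 1298, 1265, 1361, 1179, 1347 and 1267 CPM, and Mymx, its partner myomixer, had 106 ± 3.43 CPM. Cd81, a tetraspanin, had 627 ± 26.3 CPM and the laminin receptor Itga7 609 ± 21.7 CPM. Itgb1, integrin β1, had 1188 ± 61.9 CPM and the adhesion molecule Cdh15, M-cadherin, 264 ± 18.9 CPM. Adam12 was the lowest of the 10 genes at 5.32 ± 0.815 CPM.

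Of the myogenic factors, Myog led Myod1 by 11.2-fold. Myod1, the determination factor MyoD, had 74.2 ± 2.82 CPM, Myf5, the early determination factor, 8.95 ± 2.36 CPM, and Myf6, which is abundant in adult fibres, 0.679 ± 0.303 CPM. Mef2c, a MADS-box partner of these factors, had 1757 ± 69.6 CPM and exceeded Mef2a by 7.03-fold. Mef2a and Mef2d, at 250.5 ± 20.2 and 248 ± 13.7 CPM, did not differ beyond their spread (adjusted p = 0.781, exact permutation test). Of the Id proteins, which sequester E-box factors, Id2 at 68.5 ± 1.14 CPM led Id1, at 22.0 ± 1.45 CPM, by 3.12-fold. Both lay above the median included gene, at 14.5 CPM.

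In these counts, muscle isoforms led among the enolases, mutases and phosphofructokinases of glycolysis, and hexokinases had no leader. Aldoa had 1500.5 ± 94.995 CPM and exceeded Aldoc by 555-fold. Eno3, the muscle enolase, had 1355 ± 109 CPM (1386, 1212, 1459, 1272, 1491 and 1309.8 CPM) and exceeded the neuronal form Eno2 by 41.2-fold, and Pgam2, the muscle mutase, exceeded Pgam1 by 16.7-fold. Pkm, pyruvate kinase, had 1274 ± 115 CPM, Pfkm, the muscle phosphofructokinase, 248 ± 6.41 CPM, 3.16-fold above Pfkp, and Ldha exceeded Ldhb by 35.9-fold at 319 ± 18.8 CPM. Tpi1, triose phosphate isomerase, had 328 ± 20.9 CPM. Hk1 and the insulin-responsive Hk2 did not differ beyond their spread, at 139.7 ± 14.9 and 130.2 ± 10.3 CPM (adjusted p = 0.224, exact permutation test). Division by transcript length, the same shift in every library, gave a log2 ratio of 0.46. Of the 23 genes of the list, 10 exceeded 100 CPM. Some low values in this pathway are uncertain, since 87.8% of the 3′ windows of Gapdh, listed at 77.8 ± 17.4 CPM, and 82.4% of those of Eno1, at 19.97 ± 3.17 CPM, also occur in other genes. The lead of Eno3 over Eno1 is therefore uncertain. For Tpi1 the share was 12.96%, for Ldha 12.9% and for Pgam1 0%. The search does not find near-identical copies, so the low count of Pgam1 also remains uncertain.

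Glucose transporters were few. Slc2a1, the basal transporter GLUT1, had 40.8, 37.0, 39.8, 45.5, 41.9 and 47.0 CPM. Slc2a4, the insulin-responsive GLUT4 of adult muscle, had 1.96, 1.02, 2.65, 2.09, 1.39 and 0.761 CPM. Slc2a1 was thus 27.2-fold more abundant, and Slc2a4 did not differ from Slc2a3, at 1.64 ± 0.444 CPM, beyond the spread (adjusted p = 0.768, exact permutation test). Slc16a1, a lactate carrier, exceeded Slc16a3 by 1.39-fold at 49.7 ± 3.79 CPM. In glycogen metabolism Pygm, the muscle phosphorylase, had 248 ± 10.96 CPM, 7.83-fold above Pygb, and Gys1, the muscle synthase, 185 ± 12.3 CPM. Pgm1 and Gyg, glycogenin, followed at 112 ± 8.59 and 89.8 ± 5.48 CPM, and Phkg1, the muscle γ subunit of phosphorylase kinase, was lowest at 0.217 ± 0.0599 CPM, with 31.1% of its 3′ windows shared. Creatine kinases were split between the muscle form Ckm and the brain form Ckb, at 288 ± 10.05 CPM, a 1.09-fold difference that held in all 6 libraries, while the mitochondrial form Ckmt2 had 1.11 ± 0.258 CPM. For Ckb, 15.7% of the 3′ windows occur in other genes.

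Nuclear genes of oxidative phosphorylation were abundant, with a median of 230.5 CPM over 56 genes, of which 44 exceeded 100 CPM. Medians were 141 CPM over 21 complex I genes, 170.0 CPM over 7 genes of complex III, 355 CPM over 13 genes of complex IV and 312 CPM over 14 genes of ATP synthase. Ndufb8 was the highest of complex I at 411 ± 25.1 CPM and Cox6c of complex IV at 839 ± 58.2 CPM. Atp5b, the catalytic β subunit of ATP synthase, had 782 ± 21.1 CPM and Uqcrh, of complex III, 631 ± 35.8 CPM. Atp5g3, a subunit of the proton-driven rotor, had 1370.4 ± 78.4 CPM, whereas Atp5g2, whose 3′ windows are 99.2% shared with other genes, was listed at 3.501 ± 0.278 CPM and Atp5l, at 78.6% shared, at 1.86 ± 0.4602 CPM. For Cox6c 23.2% of the windows were shared. In cytochrome c oxidase the ubiquitous forms led, with Cox4i1 at 506 ± 32.97 CPM. Cox7a2 exceeded the muscle and heart form Cox7a1 by 35.8-fold, Cox8a exceeded Cox8b by 7.08-fold, and Cox6a1 exceeded the muscle form Cox6a2, at 220.0 ± 13.1 CPM, by 1.63-fold. The ATP/ADP carrier was the muscle form: Slc25a4 had 727 ± 15.7 CPM and exceeded Slc25a5 by 11.2-fold.

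**Figure D3:**
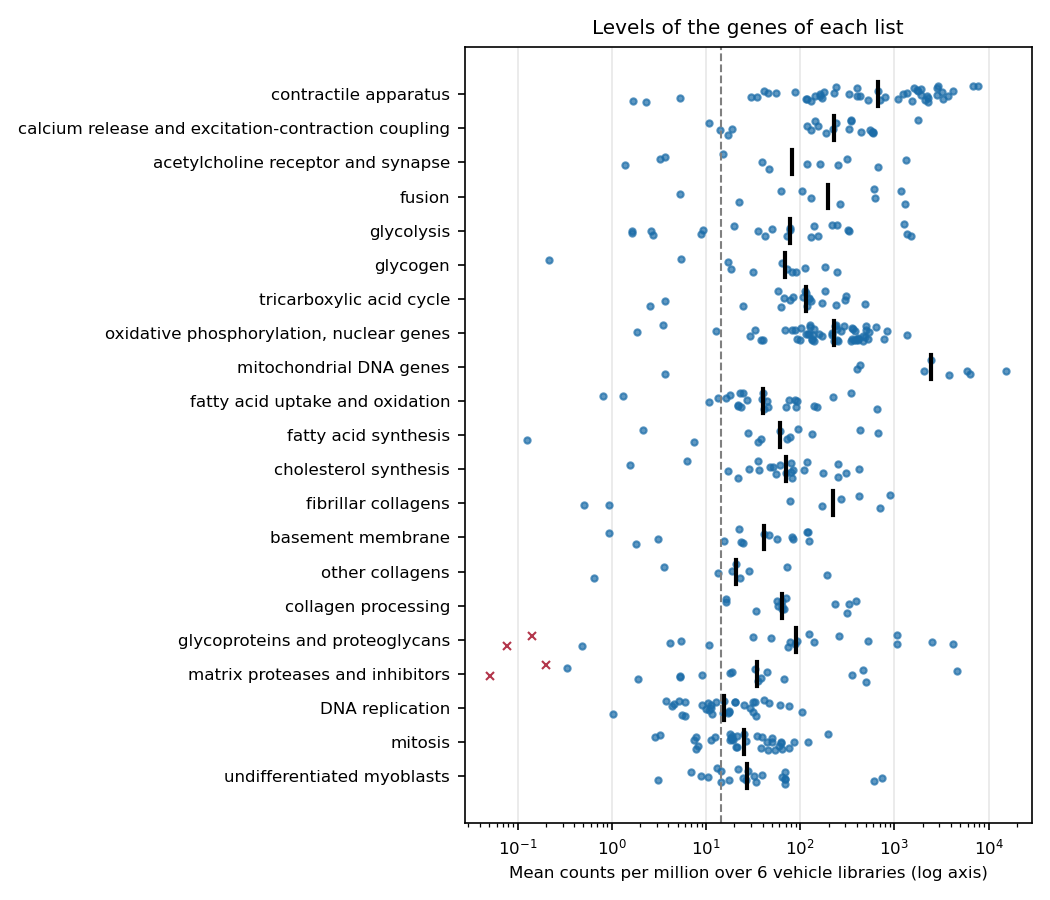
Mean level of each gene in 21 lists. Each point is a gene, plotted by its mean over the 6 vehicle libraries in CPM on a log axis. Crosses are genes without a count in all 6, black bars are list medians, and the dashed line is the median of all included genes, 14.5 CPM. Contractile and respiratory genes lie far to the right of that line, and DNA replication genes lie around it.

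Transcripts of the mitochondrial genome summed to 36871 ± 7378 CPM over the 9 measured genes of 15 listed. These 9 took 3.69% of the reads, of which the 2 ribosomal RNAs took 2.13%, so the sum does not describe the messengers alone. Of the 3′ windows, 100% for mt-Co1 and 22.8% for mt-Nd2 also occurred in another gene, so their counts are uncertain. mt-Rnr1, the small ribosomal RNA, had 5957 ± 1768 CPM, mt-Nd2 had 3813 ± 938 CPM, and mt-Nd6, the lowest, had 3.66 ± 1.02 CPM. mt-Rnr2, the large ribosomal RNA, had 19737, 19584, 11854, 13125, 13122 and 14910.3 CPM, and mt-Nd4, a complex I subunit, had 7797, 5499, 5566, 4403, 9135 and 6003 CPM. Libraries 1 and 2 were high for the first and libraries 1 and 5 for the second. The tricarboxylic acid cycle list had a median of 117 CPM over 21 genes, with Mdh2, malate dehydrogenase, highest at 488 ± 23.2 CPM, followed by Sdhb at 306 ± 31.8 CPM, with Pdha1 at 239.8 ± 10.8 CPM, and Sdhd lowest at 2.52 ± 0.269 CPM.

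Lipid genes were lower. Acsl3, which activates fatty acids, led the fatty acid oxidation list at 649 ± 42.8 CPM, followed by Acadl at 343 ± 15.4 CPM, Hadha at 221 ± 13.7 CPM and Acaa2 at 152 ± 17.1 CPM. 5 of its 27 measured genes exceeded 100 CPM. Cpt1a, the liver form of the enzyme that admits long-chain fatty acids to mitochondria, had 13.3 ± 0.684 CPM, 5.06-fold above Cpt1c, Ppara, a fatty acid sensor, was lowest of the list at 0.816 ± 0.291 CPM, and Cpt1b was not analysed here. For synthesis, the desaturases Scd2 and Scd1 had 670.4 ± 49.7 and 432 ± 16.4 CPM, Fasn, fatty acid synthase, had 135 ± 20.1 CPM, Elovl1, an elongase, had 95.9 ± 7.56 CPM, Acaca, the cytosolic acetyl-CoA carboxylase, had 35.7 ± 5.33 CPM, and Acacb, the mitochondrial acetyl-CoA carboxylase, had 0.125 ± 0.103 CPM. In cholesterol synthesis Hmgcs1 led at 426 ± 14.8 CPM, followed by Cyp51 at 304 ± 12.7 CPM and Ebp at 251 ± 12.2 CPM, Idi1 was lowest at 1.56 ± 0.299 CPM, and 7 of 23 genes exceeded 100 CPM. Of the AMP-activated kinase subunits, Prkaa1 exceeded Prkaa2 by 4.52-fold, Prkab2 exceeded Prkab1 by 4.67-fold, and the muscle γ subunit Prkag3, at 138 ± 10.8 CPM, exceeded Prkag1 by 1.11-fold, an order that turned over per transcript length, with a log2 ratio of -0.63. Ppargc1b was the most abundant of the PGC-1 coactivators at 28.99 ± 3.56 CPM, 2.20-fold above Pprc1, and Ppargc1a had 6.204 ± 1.11 CPM. Of the AMP deaminases, Ampd3 exceeded Ampd2 by 1.59-fold at 13.1 ± 1.66 CPM, and Ampd2 did not differ beyond its spread from the muscle form Ampd1, at 6.01 ± 1.14 CPM (adjusted p = 0.136, exact permutation test).

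Of the matrix lists, glycoproteins and proteoglycans took 1.04% of the reads, proteases and their inhibitors 0.6253% and fibrillar collagens 0.255%, with Timp2, Sparc and Mgp highest. Sparc stood at 4371, 4089, 4448, 3968, 4339 and 4120.1 CPM. Timp2 stood at 4859.7, 4579, 4987, 4520.1, 4664 and 4357 CPM. Mgp, matrix Gla protein, an inhibitor of calcification, had 2519.8 ± 142 CPM, ranging from 2333.5 to 2675 CPM. The coefficients of variation of these 3 transcripts of secreted proteins were 4.49% for Sparc, 4.93% for Timp2 and 5.62% for Mgp. Bgn, the proteoglycan biglycan, had 1068 ± 78.4 CPM, and Fn1, fibronectin, had 1078 ± 212 CPM, lowest in library 2 at 744 CPM and highest in library 4 at 1338 CPM.

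Of 8 measured fibrillar collagen genes, Col3a1 had 899 ± 48.9 CPM, Col1a2 709.7 ± 104 CPM, Col1a1 418 ± 51.1 CPM and Col5a1 273 ± 21.6 CPM, and Col11a2 was lowest at 0.511 ± 0.359 CPM. Basement membrane genes were lower, with a median of 41.0 CPM over 15 genes, led by Col4a1 and Col4a2, the chains of its collagen network, at 123 ± 9.95 and 122 ± 11.9 CPM. The laminin chains Lamb1 and Lamb2 had 119 ± 7.83 and 83.4 ± 6.78 CPM, and Lama1 was lowest at 0.9302 ± 0.369 CPM. Col8a1 led the other collagens at 192 ± 10.9 CPM, followed by the collagen VI chains Col6a3 at 72.2 ± 21.8, Col6a2 at 28.3 ± 2.33 and Col6a1 at 22.8 ± 1.35 CPM, and Col14a1 was lowest at 0.654 ± 0.243 CPM. Lox, which cross-links collagen, had 389 ± 20.2 CPM, and Pcolce, which enhances the trimming of procollagen, 317 ± 25.8 CPM. P4hb, a subunit of prolyl hydroxylase, had 328 ± 7.56 CPM, Loxl1 had 232 ± 8.65 CPM, and Loxl2 was lowest of the 14 processing genes at 16.1 ± 0.884 CPM. Mmp14, a membrane-bound metalloproteinase, had 501 ± 41.4 CPM and its substrate Mmp2 had 66.96 ± 4.09 CPM. The inhibitors Timp1 and Timp3 had 459 ± 26.6 and 354 ± 9.98 CPM. Lum, Eln, Reck and Mmp13 lacked a count in at least 1 library, with Mmp13 at 0.0514 CPM and Lum at 0.0781 CPM.

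Proliferation genes had median levels close to or above that of all included genes. All 34 DNA replication genes and all 35 mitosis genes had a count in every library, with medians of 15.4 and 25.1 CPM beside 14.5 CPM over all included genes, and sums of 760.1 ± 13.3 and 1374 ± 26.9 CPM. Top2a, the topoisomerase that untangles sister chromatids, had 194, 199.6, 208, 204, 172 and 197 CPM. Birc5, the cytokinesis protein survivin, had 129.6, 119.1, 127, 113, 128 and 114 CPM. Cenpf, a kinetochore protein, had 86.2 ± 8.45 CPM, Prc1, of the spindle midzone, 76.8 ± 3.32 CPM, and the kinase Nek2 was lowest of the mitosis list at 2.87 ± 0.825 CPM. Mki67, which marks cycling cells, had 44.3 ± 4.25 CPM, Lig1, the replicative ligase, 104 ± 3.54 CPM, Rrm1 and Rrm2, of ribonucleotide reductase, 75.8 ± 3.33 and 46.3 ± 4.52 CPM, Mcm7, of the replicative helicase, 60.98 ± 5.02 CPM, and Orc1, of the origin recognition complex, only 1.03 ± 0.2401 CPM. In these bulk libraries a few cycling cells and low RNA in many cells cannot be told apart. Cdkn1a exceeded Cdkn1b by 55.9-fold and Ccnd3, the cyclin D form that persists in myotubes, exceeded Ccnd2 by 7.67-fold at 1142 ± 85.9 CPM. Of the last 400 bases of Ccnd3, 353 lie under opposite-strand exons. Rb1, which keeps myotubes out of the cycle, had 85.05 ± 9.65 CPM and exceeded Rbl2 by 1.58-fold.

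Over the 22 genes of undifferentiated myoblasts the median was 27.0 CPM, and of these 19 exceeded 10 CPM and 2 exceeded 100 CPM. Pax7, the satellite cell factor, had 13.6, 12.3, 12.1, 13.7, 11.6 and 15.9 CPM, and Msc, a repressor of MyoD targets, had 14.3 ± 0.822 CPM. The adhesion molecule Ncam1 and the laminin receptor Itga7, which myotubes also express, were the highest at 744 ± 41.5 and 609 ± 21.7 CPM. Next came the receptor Fgfr1 at 69.8 ± 6.77 CPM and Hes1, a Notch target, at 68.8 ± 14.8 CPM, and Fgfr4 was lowest at 3.06 ± 0.611 CPM.

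The 6 libraries resembled each other closely. Pearson correlations of log2 CPM across 8114 genes of at least 10 CPM, which are not independent replicates, were between 0.990 and 0.996 over the 15 pairs. The biological coefficient of variation, the spread between libraries beyond counting error, was 8.52% by edgeR's common dispersion and 6.13% for the median of these genes. Counting noise alone would give a chi-square per gene near 1 between a pair of libraries, and the observed values were 4.46 to 21.8, so that none is a copy of another. Libraries 4 and 6 were the closest pair and libraries 4 and 5 the most distant. The first principal component took 41.8% of the variance and separated libraries 2, 4 and 6, with positive loadings, from 1, 3 and 5, with negative ones. The second, with 25.6%, set library 2 apart with a loading of 0.79.

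The most variable genes fell into a few shared patterns. Ttn, the giant elastic protein titin, had 1414, 1086, 2422, 3163, 1171 and 2339 CPM, a biological coefficient of variation of 42.9%. Libraries 3, 4 and 6 lay above the other 3 without overlap. Neb, nebulin, another giant filament protein, had 1643, 1140.5, 2432, 2444, 1481 and 2296 CPM, with the same 3 libraries high. Hspg2, the basement membrane proteoglycan perlecan, had 65.0, 47.5, 85.2, 127, 68.0 and 101.3 CPM. The nuclear noncoding RNAs Neat1 and Malat1 were high in libraries 2 and 5. Neat1 had 76.7, 158, 72.2, 77.2, 193 and 76.3 CPM, and Malat1 had 3194, 6039, 2760.0, 3522, 5861 and 3448 CPM. Ctnnd1, the adhesion protein p120-catenin, was first of all with 45.4%, and had 12.03, 20.5, 11.8, 27.6, 15.8 and 36.6 CPM. It was 1 of 10 among the 15 most variable genes that were highest in libraries 4 and 6. The others of the 10 were Gm10260, Ccn2, Pfn1, Sem1, Fryl, Lta4h, Cox17, Rbm38 and Hspg2, and 10 of the 15 were lowest in library 3. Snord89, a small nucleolar RNA, Gm28653, a long noncoding RNA, and Commd1 completed the 15.

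**Figure D4:**
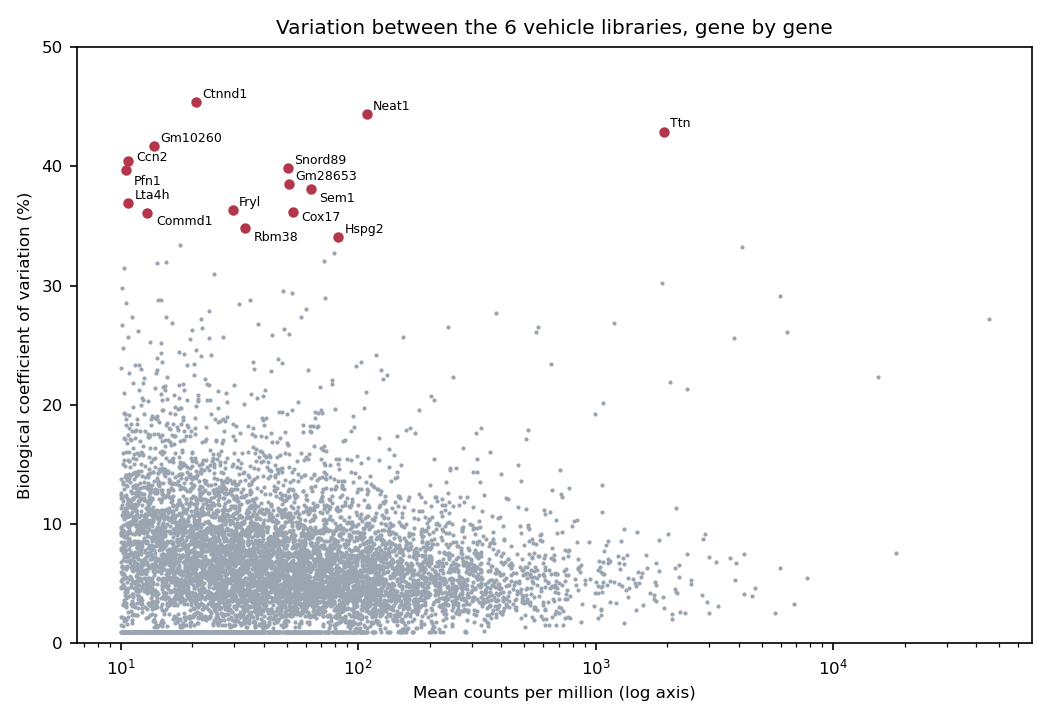
Variation between the 6 vehicle libraries for 8114 genes. The horizontal axis is the mean level in CPM on a log scale and the vertical axis is the biological coefficient of variation in percent. Each grey point is a gene, and the 15 most variable, in red, range from 34.1% for Hspg2 to 45.4% for Ctnnd1.

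At the other end, 38 of the 1921 genes above 100 CPM sat at the lowest value the estimator gives, 0.988%, and Sox9, Map7d1, Arhgdia, Thoc2 and Zcrb1 were the most abundant of them. Zcrb1, a minor spliceosome protein, had 209, 207, 208.9, 208, 211 and 217 CPM. Sox9 had 280.3, 275, 282, 292, 289 and 283 CPM. For these genes the estimator gave no spread beyond counting error.

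Deviations between libraries were largest for the longest transcripts, and their order by length differed between libraries. For 223 genes whose longest annotated transcript has 10000 bases or more, the median log2 deviation from the mean over libraries was -0.04, -0.13, 0.08, 0.15, -0.15 and 0.10 in libraries 1 to 6, and the median biological coefficient of variation was 11.2%. For 354 genes under 1000 bases the deviations were 0.02, -0.07, 0.04, -0.04, 0.09 and -0.03, and the coefficient was 5.97%. Libraries 1, 4, 5 and 6 changed sign between the shortest and the longest class, and libraries 2 and 3 did not. RNA quality values per library were not analysed here, and their part in this pattern was not tested.

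**Figure D5:**
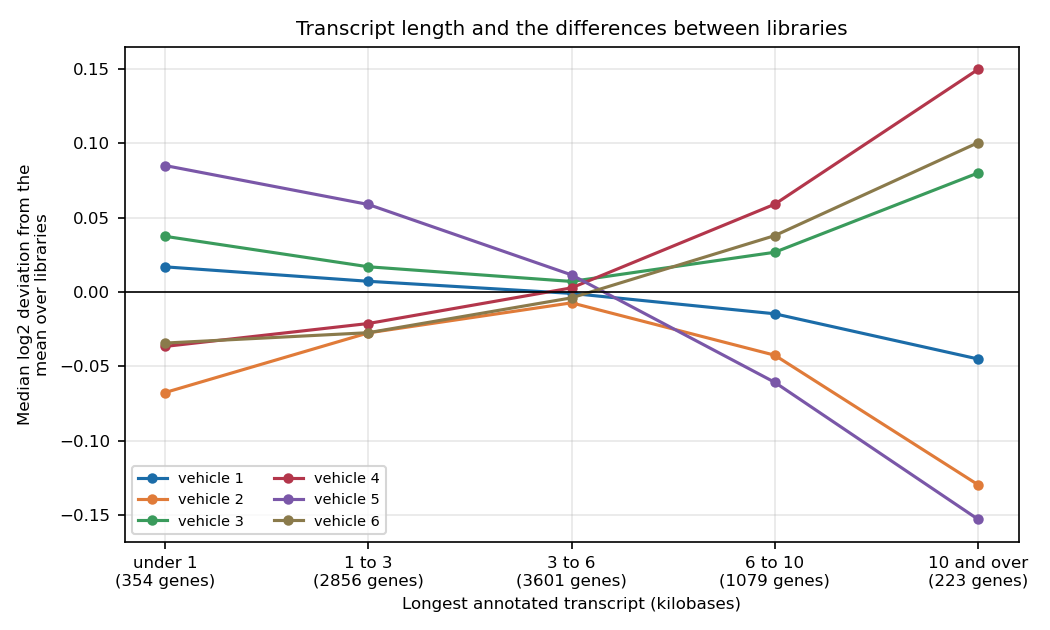
Median log2 deviation of a library's CPM from the mean over libraries, for genes grouped by the length of their longest annotated transcript in kilobases. Each line is 1 vehicle library, and the number of genes in each class is under the axis. The lines of libraries 4 and 6 rise with length to 0.15 and 0.10, and that of library 5 falls from 0.09 to -0.15.

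Whether libraries with more contractile messenger had less of other programs was asked with 5 relations, each between the mean log2 CPM of the contractile list and that of another list over the 6 libraries. By exact permutation tests over all 720 orders, with Benjamini-Hochberg adjustment over the 5 relations, none passed, and 3 of the 5 changed sign with the way a list was summarised. Fibrillar collagens had the smallest p, with Pearson's r = -0.75 (permutation p = 0.0917, adjusted 0.458) and Spearman's rho = -0.66 (permutation p = 0.175, adjusted 0.699), and r = -0.48 without the 2 libraries farthest from the contractile median. The sign turned with the log2 of the summed CPM, to r = 0.21, and with members of at least 10 CPM, to r = 0.49. For mitosis r was -0.47 (permutation p = 0.306, adjusted 0.658) and rho -0.31 (permutation p = 0.564, adjusted 0.705), and without the 2 farthest libraries r was 0.57. Under the same changes of summary it was 0.11 and 0.23. DNA replication gave r = 0.28 (permutation p = 0.575, adjusted 0.658), rho = -0.09 (permutation p = 0.919, adjusted 0.919) and r = -0.71 without the 2 farthest libraries. Undifferentiated myoblast genes gave r = -0.25 (permutation p = 0.658, adjusted 0.658), rho = -0.43 (permutation p = 0.419, adjusted 0.699) and r = 0.13 without the 2 farthest libraries, and under those summaries r = 0.26 and 0.13. Glycolysis gave r = 0.23 (permutation p = 0.467, adjusted 0.658), rho = 0.54 (permutation p = 0.297, adjusted 0.699) and r = 0.66 without the 2 farthest libraries. The contractile level itself moved little, with an SD of 0.04 on the log2 scale, which limits what 6 libraries could show.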

How the data were processed

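Total RNA of C2C12 myotubes had been made into QuantSeq 3′ libraries and sequenced from 1 end. Read lengths and passages differ between the labels and the methods. The authors aligned and counted the reads with BlueBee, and the counts they deposited are whole reads per gene without normalization. The submitters' processing notes name GRCm38 and DESeq2 1.22.2. Aligner, annotation and strand are not given in the sources used here. The authors also deposited a normalized signal, which is the counts divided by a factor per library and served for 1 alternative. Of the table's columns, 11 belong to no sample of the series and were not used.

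Only the 6 vehicle libraries were read, and no conditions were compared. Library totals were 15299135 to 18866728 counts. Counts were divided by the library total and multiplied by 1000000 (CPM). Of the 15113 identifiers, 15080 were found in GENCODE M21, which gave symbols, positions and transcript lengths. The 3′ ends of named genes, their last 400 bases in windows of 50, were searched in all transcripts of that annotation for exact copies. Ratios within families, with 0.5 added to each count, were tested by exact sign-flip permutation. Dispersions came from edgeR 4.0.16 with TMM factors in R 4.3.3, over the 14346 genes with a count in every library. Only genes of at least 10 CPM were then ranked. Tested on simulated data of 8114 genes, 191 of 200 planted variable genes were recovered among the 200 most variable. The planted spread was larger than that of any ranked gene, of which the highest was 45.4%. This recovery therefore does not measure how accurate the ranking is here. Other steps used Python 3.11.15 with scipy 1.17.1.

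The genes, families and lists were chosen with earlier results of these data known. The text names the 6 markers, the 20 most abundant genes, the leading members of each family, the 4 highest and the lowest of each list, and the 15 most and 5 least variable genes, and adds others to complete a family or pathway. A gene without a row in the table is given as not analysed here. A few genes that this rule names are not reported here. Promoter windows were RefSeq's, in GRCm38.p6. Alternatives were other minimum counts, added counts, scalings and dispersion estimators, transcript length, and each library left out. A repeat of the family order without genes that share at least 10% of their 3′ windows, and a count of genes without ribosomal RNA genes, were added after seeing the data.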

Additional observations from a re-analysis of the deposited data

Results flagged for a closer look

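Over 182 values of named genes, family ratios and list sums, 8 had a library far from the others, in that the gap to its neighbour took more of the whole range than the 95% critical value of Dixon's test. Chance alone marks about 1 in 20 groups, so 8 of 182 is no more than chance alone would give. Hsp90ab1 was highest in library 3 at 5981 CPM, where the others lay between 5547 and 5695 CPM. Myh1 was lowest in library 5 at 926 CPM, against 1090.2 to 1131 CPM. Myoz1 was highest in library 1 at 6.47 CPM, against 4.88 to 5.44 CPM, and Slc16a3, a lactate exporter, was highest there too at 42.6 CPM, against 32.4 to 36.1 CPM. Myom3 was lowest in library 2 at 234 CPM, against 259 to 270.4 CPM, and the log2 ratio of Myom2 over Myom3 was highest there at 1.501, against 1.40 to 1.43. That ratio uses the same Myom3 counts, so it is not a separate event. The log2 ratio of Ldha over Ldhb was highest in library 6 at 5.36, against 5.06 to 5.16. The summed CPM of glycoproteins and proteoglycans was lowest in library 2 at 9646 CPM, against 10348 to 10619.5 CPM.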

How the results depend on the processing

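No paired analysis was possible because only libraries of 1 condition were described and no condition was compared with another. The number of included genes, 14346, the number of genes holding 50% of the reads, 474, and the 41 families past the threshold stayed within 1.5 times their value under every alternative tried. With 5 libraries the sign-flip test cannot reach 0.05, so families were not retested without each library. Dividing by the length of the longest transcript turned over 5 pairs, with log2 ratios of -0.19 for Myl4 over Myl1, -1.45 for Tnnt2 over Tnnt3, -1.15 for Tnni1 over Tnni2, -0.61 for Atp2a2 over Atp2a1 and -0.63 for Prkag3 over Prkag1. This division shifts the ratio of a pair by the same amount in every library, set by the annotated lengths. The biological coefficient of variation of 8.52% ranged from 8.27% to 9.16% when each library was left out, highest without replicate 1. Of the 15 most variable genes, 7 remained with a mean CPM of at least 50, since fewer genes were ranked. No relation between list levels passed the threshold under any of 4 other scalings or summaries, but 3 turned over under both other summaries. With the log2 of the summed CPM and with members of at least 10 CPM, r became 0.21 and 0.49 for fibrillar collagens, 0.11 and 0.23 for mitosis and 0.26 and 0.13 for undifferentiated myoblasts, and the cause was not tested. At this depth genes under 0.196 CPM cannot be told from 0, and no value was checked against a second annotation or strand rule.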

Other observations

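Further gene groups were read after the other values had been seen, and their values are descriptions only. Igf2, a growth factor whose gene neighbours H19 in the same imprinted cluster, had 283 ± 13.8 CPM, so that H19 was 65.2-fold more abundant, between 55.7-fold and 77.9-fold over the 6 libraries. All 400 of the last bases of Igf2 lie under a same-strand exon of another gene, so its count and this ratio are uncertain. Of the other imprinted genes measured, Gnas, a G protein subunit, had 1496 ± 133 CPM and Peg3, a zinc finger factor, 310.1 ± 27.1 CPM, while Grb10, an adaptor that restrains insulin signalling, had 0.684 ± 0.302 CPM. Among secreted factors, the BMP antagonist Grem1 had 269 ± 32.8 CPM, Tgfb3 175 ± 13.1 CPM and the activin antagonist Fst, follistatin, 96.95 ± 13.7 CPM. Igf1 had 9.26 ± 0.365 CPM, the interleukins Il15 and Il6 had 3.32 ± 0.584 and 0.365 ± 0.222 CPM, and Ostn, musclin, was listed at 0 in all 6 libraries.

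In the dystrophin complex, Dag1, dystroglycan, had 823 ± 42.5 CPM, Utrn, utrophin, 250.1 ± 28.9 CPM and Dmd, dystrophin, 27.3 ± 3.54 CPM. The caveolar genes Cavin1 and Cav3 had 1244 ± 97.2 and 241 ± 11.6 CPM. The ubiquitin ligases Fbxo32 and Trim63, which rise in wasting muscle, had 99.6 ± 3.999 and 76.1 ± 6.27 CPM, and Klhl41, which stabilizes nebulin, had 467 ± 20.1 CPM. Mb, the oxygen store myoglobin, had 522 ± 19.2 CPM, and all 400 of its last bases lie under opposite-strand exons. Of the uncoupling proteins, Ucp2 had 60.4 ± 4.72 CPM and the muscle form Ucp3 1.08 ± 0.135 CPM. Among chaperones, Cryab, the small heat shock protein that guards desmin, had 1364 ± 60.3 CPM and Hspb8 684 ± 68.2 CPM.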
